A study of Homo sapiens with 6 samples.

Results

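The clustered protocadherins are a family of cadherin-type adhesion proteins whose genes lie in the alpha, beta and gamma clusters side by side on chromosome 5. They were taken here as the genes whose probe set symbol starts with PCDHA, PCDHB or PCDHG, with pseudogenes left out. Of 53 such coding genes in a RefSeq gene table, 16 were measured by a named probe set, out of 14884 genes named and tested in all. These 16 were the whole beta cluster, PCDHB1 to PCDHB16, with 1 probe set each. The platform's annotation table named no probe set for any of the 15 alpha or 22 gamma genes, so what follows describes beta protocadherins only.

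The cells were MDA-MB-231, an established human breast carcinoma line, and their RNA was read on GeneChip arrays that cover whole transcripts. Cells labelled control and cells labelled NR1D1 KO, a knockout of the gene of the circadian repressor REV-ERBα, gave 3 arrays each. Every array, controls included, came from cells kept 72 h with 200 µM H2O2, so no untreated level of any protocadherin was measured. Each sample title counts its array as a biological replicate. How the knockout was made, and whether its arrays share 1 clone or 1 culture, is not given in the sources used here; the p-values therefore reflect only how far these arrays scatter, which may be technical. No probe set was named NR1D1, so the knockout was not checked on its own transcript. Array medians lay between 5.18 and 5.22 on the log2 scale, and of 8 genes listed as markers of the line 7 were measured, with a mean log2 value of 9.5 to 9.55 on control and 9.67 to 9.7 on knockout arrays. Of these 7, 3 were called, which here means a limma p of under 0.05 after adjustment over all genes (42.9%, beside 9.49% of all genes). The filament genes KRT18 and VIM rose by 0.35 (limma, adjusted p = 0.0439) and 0.34 (0.0337), and the hyaluronan receptor gene CD44 fell by 0.35 on the log2 scale (0.0324). A dimmer probe set of KRT18 changed by 0.31 (adjusted p = 0.0732 over named probe sets), and dimmer ones of VIM by 0.33 (0.0446) and 0.31 (0.0531). KRT18 was also not called after quantile normalization of the deposited values (0.0642) or with its probe sets averaged (0.0513). Leaving out any of the 6 arrays ended the calls of KRT18 (0.0656 to 0.156) and CD44 (0.052 to 0.112), and leaving out any but knockout replicate 1 ended that of VIM (0.0762 to 0.117). The part of these genes in the protocadherin changes was not tested. The hormone receptor genes ESR1 and PGR, which this triple-negative line is known to lack, had control means of 5.19 and 3.99, with no detection call to say whether those are background. They belong to a list of 7 genes chosen as low in this line, of which 5 were measured. Of these 5, 2 were brighter and were called (40.0%, beside 9.49% of all genes). GATA3, a luminal transcription factor gene, had a control mean of 7.48 and fell by 0.73 on the log2 scale in the knockout (limma, adjusted p = 0.00166), and EPCAM, an epithelial adhesion gene, had a control mean of 7.22 and rose by 0.40 (adjusted p = 0.0286). EPCAM was not called when any array but knockout replicate 1 was left out (adjusted p from 0.0551 to 0.101). RNA came from whole cultures, so a change in the number of cells that carry a transcript and a change in its amount per cell cannot be told apart.

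Clustered protocadherins bind the same isoform on a facing cell and are best known in neurons, where each cell switches on a few of the many promoters and so carries an adhesion label of its own. Promoter choice runs through DNA methylation and through the insulator factor CTCF and cohesin, which loop a chosen promoter to distant enhancers. In the alpha and gamma clusters each variable exon is spliced to constant exons that all members share, so a probe in a constant exon cannot tell members apart. Beta genes have no such constant exons, and each one carries its coding sequence and its promoter for itself.

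The promoters are shown because each beta gene is read from its own. RefSeq promoters of build GRCh38.p14, from 250 bases before to 50 after the annotated gene start, were found for 14 of the 16 genes, all on the plus strand; PCDHB6 and PCDHB11 were not among them. The longest stretch found in as many of these promoters as any 8-base stretch was GGTGGCGCT, with 9 bases, in 13 of 14 promoters. The exception was PCDHB1. The stretch was chosen from the members' own sequences, so its high share among them is a description. The same 9 bases, on either strand, were in 0.501% of all 35116 promoters of the table (176 of them), and in 0 of the 33 promoters that the table lists for the numbered alpha and the gamma A and B genes. The stretch holds the 4 bases CGCT, the core by which the conserved element of protocadherin promoters is known. CGCT by itself was in all 14 beta promoters and in 32 of those 33, but also in 70.0% of all promoters. The windows below run from 12 bases before to 12 after the stretch, which is in capitals.
PCDHB2 (chr5:141094543-141094575): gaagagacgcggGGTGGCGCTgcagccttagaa
PCDHB3 (chr5:141100392-141100424): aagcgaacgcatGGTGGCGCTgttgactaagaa
PCDHB4 (chr5:141121722-141121754): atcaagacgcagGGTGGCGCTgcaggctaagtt
PCDHB5 (chr5:141135178-141135210): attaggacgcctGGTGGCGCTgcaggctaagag
PCDHB7 (chr5:141172565-141172597): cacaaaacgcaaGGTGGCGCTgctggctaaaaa
PCDHB8 (chr5:141177776-141177808): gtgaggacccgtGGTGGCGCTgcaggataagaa
PCDHB16 (chr5:141182309-141182341): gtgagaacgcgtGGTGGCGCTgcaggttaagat
PCDHB9 (chr5:141187073-141187105): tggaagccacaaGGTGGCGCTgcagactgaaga
PCDHB10 (chr5:141192298-141192330): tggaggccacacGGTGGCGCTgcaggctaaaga
PCDHB12 (chr5:141208642-141208674): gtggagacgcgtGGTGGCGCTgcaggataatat
PCDHB13 (chr5:141213864-141213896): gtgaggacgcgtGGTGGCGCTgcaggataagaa
PCDHB14 (chr5:141223262-141223294): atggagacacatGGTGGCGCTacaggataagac
PCDHB15 (chr5:141245313-141245345): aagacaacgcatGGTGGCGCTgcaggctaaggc

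Right after the capitals, 10 of the 13 windows went on with the same 4 bases gcag. The stretch began 2 to 84 bases upstream of the annotated gene start, with a median of 66 bases. In PCDHB8 it began 2 bases upstream and in PCDHB5 16 bases upstream, the closest of the 13.

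**Figure D1:**
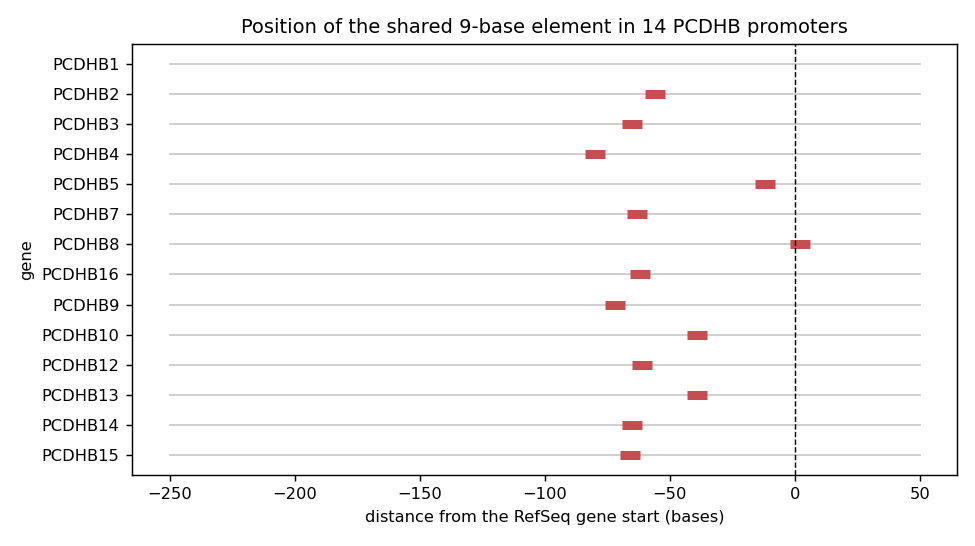
Each line is the promoter window of a beta protocadherin gene, from 250 bases before to 50 after the RefSeq gene start (dashed), and the red block is the shared 9-base stretch. It is in 13 of 14 windows, where it begins between 84 and 2 bases upstream of the start, and is not in the PCDHB1 window. In PCDHB8, where it begins 2 bases upstream, it runs across the start.

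Of 16 beta protocadherin genes, 2 rose in the knockout and none fell at an adjusted p of 0.05, tested with limma with Benjamini-Hochberg adjustment over all genes. That is 12.5% of the members, where 9.49% of all genes were called, and 4.74% were called as higher. The share called is near that of all genes. The 2 genes were PCDHB6 and PCDHB8, which lie close to each other in the cluster, with PCDHB7 and the pseudogene PCDHB17P between them.

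PCDHB6 had the largest change of the family. Its log2 values were 4.05, 3.72 and 3.81 on the control arrays and 4.99, 4.95 and 5.05 on the knockout arrays. The knockout arrays lay close together and all above the controls. The mean rose from 3.86 ± 0.167 to 5.00 ± 0.0481 (SD, n = 3 each), a log2 change of 1.13 with a standard error of 0.1, or 2.2-fold (limma, adjusted p = 0.000385). This was the only member called with a change of 2-fold or more, a size at which 0.343% of all genes were called as higher. The call held with each of the 6 arrays left out in turn, with log2 changes of 1.07 to 1.23 over the 14 alternatives that kept the gene. PCDHB6 is dim, at percentile 16.6 of the mean levels of all genes, and drops out when the dimmest 25% of genes are left out. Near the floor of an array a fold can come out too small. No detection call shows whether its control level is background, and whether its probe set also reads another beta gene was not tested.

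PCDHB8 measured 4.32, 4.36 and 4.99 on the control arrays and 5.40, 5.32 and 5.34 on the knockout arrays. The groups did not overlap, but control replicate 3 lay closer to the knockout arrays than to the other controls. The log2 change was 0.80 with a standard error of 0.168, or 1.74-fold, and a 95% interval from 0.41 to 1.18 (limma, adjusted p = 0.0226). The call was lost when control replicate 1 (adjusted p = 0.0776) or 2 (0.0765) was left out, and when knockout replicate 1 (0.0728), 2 (0.0667) or 3 (0.0615) was. Without control replicate 3 its log2 change was 1.01 (adjusted p = 0.00153).

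Next in size came PCDHB11 and PCDHB5, neither of which passed. PCDHB11 measured 7.12, 6.99 and 7.31 on control arrays and 7.85, 7.54 and 7.44 on knockout arrays. Its log2 change was 0.47 with a standard error of 0.13 (limma, adjusted p = 0.0606). PCDHB5 measured 3.74, 4.23 and 4.07 on control arrays and 4.38, 4.44 and 4.59 on knockout arrays, a log2 change of 0.46 (adjusted p = 0.068). In both genes all knockout values lay above all control values. PCDHB5 passed without control replicate 2, at a log2 change of 0.57 (adjusted p = 0.047).

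**Figure D2:**
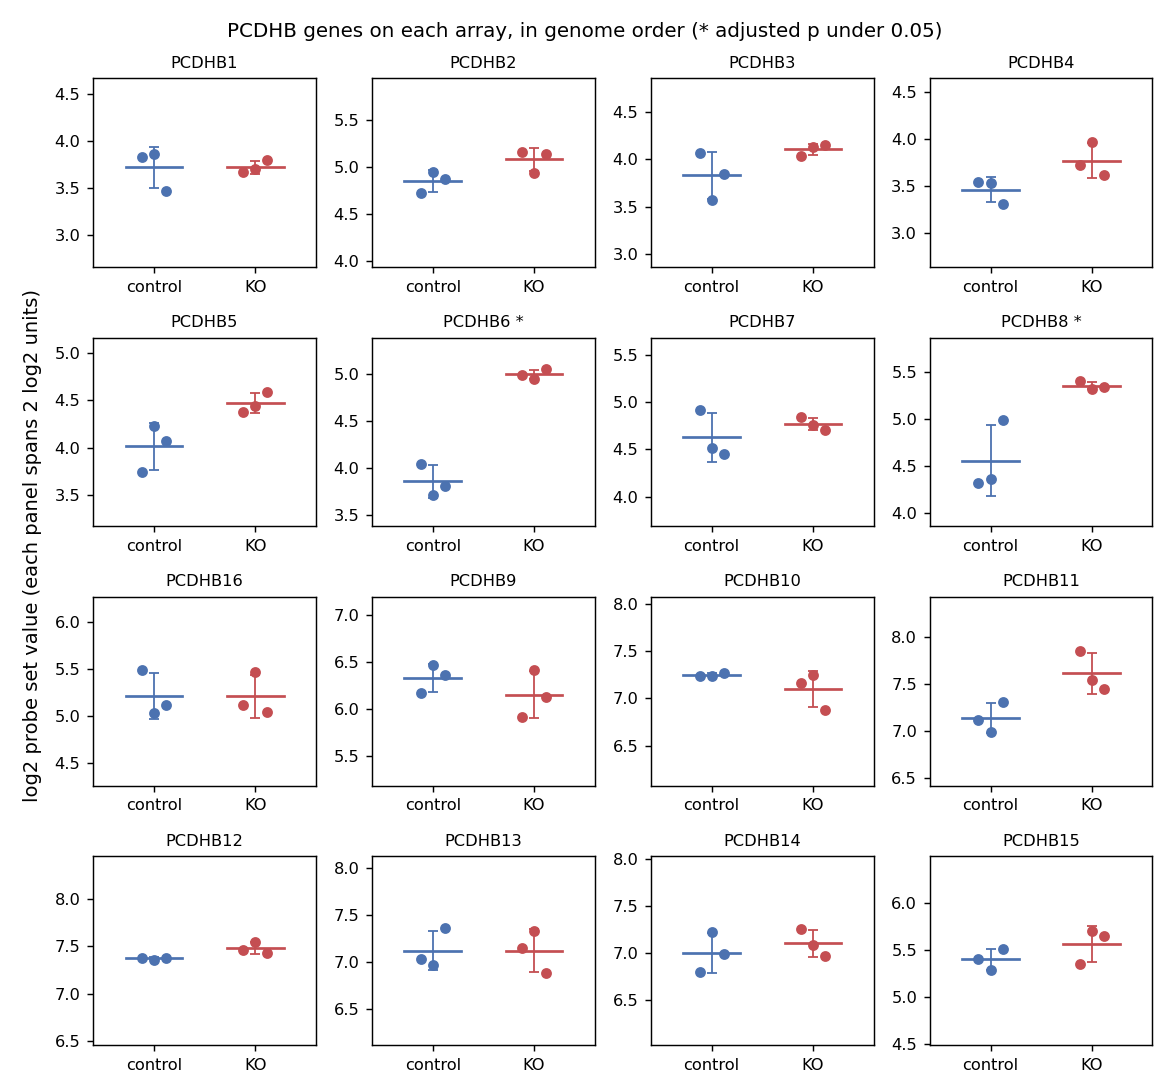
Each panel is a beta protocadherin gene in genome order, with its log2 probe set value on 3 control (blue) and 3 NR1D1 KO (red) arrays; bars give mean ± SD and every panel spans 2 log2 units on an axis of its own. PCDHB6 and PCDHB8, marked with a star, rise from means of 3.86 and 4.56 to 5.00 and 5.36, while PCDHB13 and PCDHB16 have means of 7.12 and 5.21 in both groups.

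PCDHB2, PCDHB3 and PCDHB4, which precede PCDHB5 in the cluster, had smaller positive values. PCDHB4 measured 3.54, 3.53 and 3.31 on control and 3.72, 3.97 and 3.61 on knockout arrays, without overlap, for a log2 change of 0.31 (limma, adjusted p = 0.155). PCDHB2 differed by 0.23 (adjusted p = 0.206) and PCDHB3 by 0.27 (adjusted p = 0.238), and in both the groups overlapped. PCDHB1, which stands first in the cluster and is dim (percentile 8.6 of the mean levels of all genes), differed by 0.0033 with a 95% interval from -0.26 to 0.27. PCDHB7 differed by 0.14 (adjusted p = 0.575).

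From PCDHB16 onward the differences were mostly small. PCDHB16 differed by -0.0023 with a 95% interval from -0.36 to 0.35, and PCDHB13 by -0.0022 with an interval from -0.33 to 0.33. PCDHB9 and PCDHB10 had the lowest values of the family, at -0.18 (limma, adjusted p = 0.494) and -0.15 (adjusted p = 0.456). PCDHB10 measured 7.24, 7.24 and 7.27 on control arrays and 7.16, 7.25 and 6.88 on knockout arrays, with knockout replicate 3 the lowest of the 6. PCDHB12 had nearly the same value on every array, 7.38, 7.36 and 7.38 on control and 7.46, 7.55 and 7.43 on knockout arrays. Its groups did not overlap, yet the log2 change was 0.11 (adjusted p = 0.476). PCDHB14 differed by 0.096 (adjusted p = 0.715) and PCDHB15 by 0.17 (adjusted p = 0.441). Missing the threshold does not show that these genes were unchanged.

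As a group, 12 of the 16 log2 changes were above 0 and the median was 0.16, where 51.0% of all genes were above 0 with a median of 0.0039. Control and knockout arrays did not overlap in 6 genes, PCDHB4, PCDHB5, PCDHB6, PCDHB8, PCDHB11 and PCDHB12, each of them higher in the knockout. Among all genes 28.7% did not overlap, 15.1% higher and 13.6% lower. The mean log2 value over the 16 genes was 5.36, 5.33 and 5.38 on control arrays and 5.59, 5.66 and 5.55 on knockout arrays. Each knockout array lay above each control array, with a difference of 0.24 between the group means. Without PCDHB6 and PCDHB8 the mean log2 change of the other 14 was 0.14, and with the dimmest 25% of genes left out the difference between the group means was 0.15 over the 10 members that remained. With the dimmest 50% left out it was 0.06 over 6 members.

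Beta genes are close copies of each other and probe sequences were not used here, so whether a probe set also reads a neighbour's transcript was not tested. The promoters show how close the copies can be. Of 91 pairs of beta promoters compared by local alignment, PCDHB8 and PCDHB13 were the closest, with 243 of 259 aligned bases identical (93.8%) and no gap. They are printed here whole as the closest pair, of which PCDHB8 was called and PCDHB13 was not, with the shared stretch in capitals.
PCDHB8 (chr5:141177540-141177839): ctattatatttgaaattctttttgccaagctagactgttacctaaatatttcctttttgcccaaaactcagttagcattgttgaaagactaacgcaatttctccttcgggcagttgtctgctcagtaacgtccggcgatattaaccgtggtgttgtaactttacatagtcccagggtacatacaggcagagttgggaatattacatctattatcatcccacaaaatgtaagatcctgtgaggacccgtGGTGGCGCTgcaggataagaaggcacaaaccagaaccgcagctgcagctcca
PCDHB13 (chr5:141213669-141213968): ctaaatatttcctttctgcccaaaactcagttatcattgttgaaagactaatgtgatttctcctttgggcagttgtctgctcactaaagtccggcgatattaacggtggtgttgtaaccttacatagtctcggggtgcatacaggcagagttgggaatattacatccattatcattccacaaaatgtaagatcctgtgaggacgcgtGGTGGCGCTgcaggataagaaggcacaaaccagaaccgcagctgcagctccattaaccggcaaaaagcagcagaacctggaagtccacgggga

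PCDHB8 rose and PCDHB13 measured 7.03, 6.97 and 7.36 on control and 7.15, 7.33 and 6.88 on knockout arrays, which overlap. Taken within each array, the log2 value of PCDHB8 minus that of PCDHB13 was -2.70, -2.62 and -2.37 on control arrays and -1.75, -2.00 and -1.54 on knockout arrays. The difference shifted by 0.80, which restates the change of PCDHB8 by 0.80, as PCDHB13 differed by -0.0022. The pair was chosen after its values and sequences were seen, so the shift is a description. An exact two-sided permutation test of it gave p = 0.1. That is the smallest value that 3 arrays against 3 can give, so this test could not decide. The next closest pair by identical bases, PCDHB16 and PCDHB13, shared 122 of 185 aligned bases (65.9%), and neither gene passed the test.

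**Figure D3:**
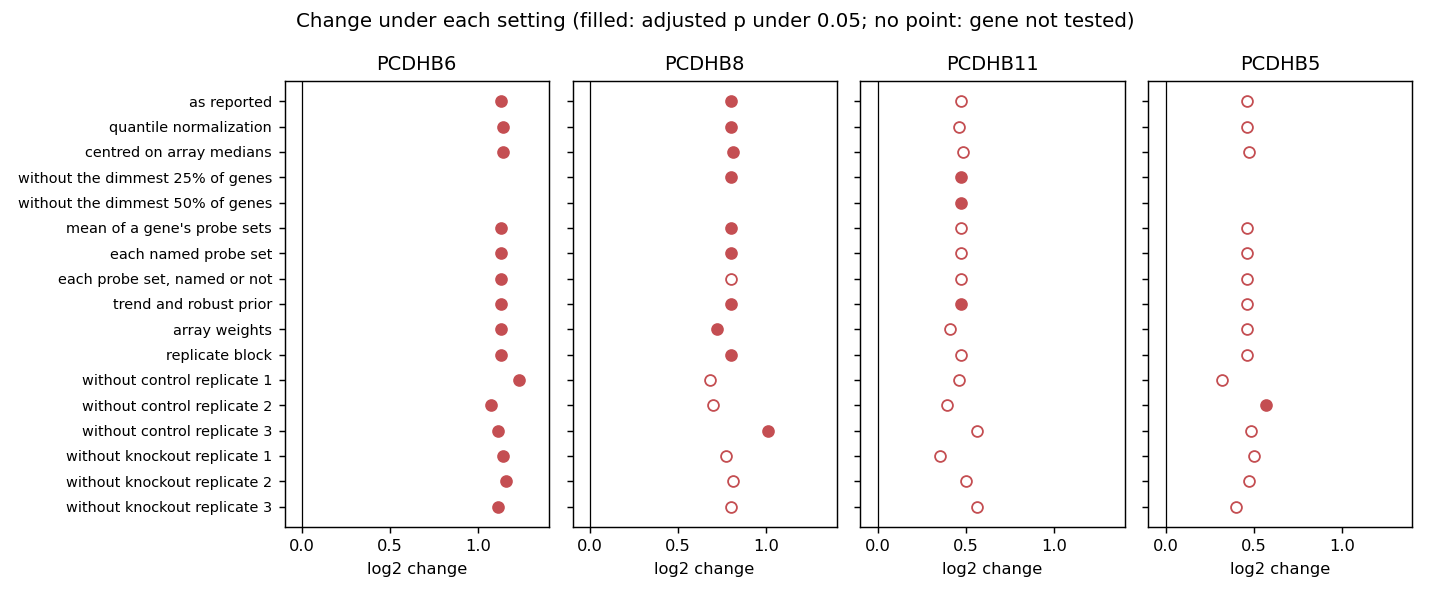
Log2 change (knockout minus control) of the 4 beta protocadherins with the largest changes under each processing setting; a filled point has an adjusted p under 0.05, and a gene that a filter removed has no point. PCDHB6 is filled wherever it was tested, PCDHB8 turns open when any array but control replicate 3 is left out and when all probe sets are tested, and PCDHB11 and PCDHB5 are open in most settings.

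The 3 beta pseudogenes with a named probe set are not members, but lie among them. PCDHB19P, between PCDHB14 and PCDHB15, measured 5.38, 5.56 and 5.37 on control arrays and 5.83, 5.95 and 5.75 on knockout arrays. It rose by 0.41 on the log2 scale with a standard error of 0.0932 (limma, adjusted p = 0.0301), a call lost on leaving out control replicate 1 (0.103), control replicate 3 (0.11), knockout replicate 1 (0.0667) or knockout replicate 2 (0.0991). PCDHB18P beside it differed by 0.24 (adjusted p = 0.431). PCDHB17P, which lies between PCDHB6 and PCDHB7, differed by -0.054 with a 95% interval from -0.25 to 0.15.

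Genes around the clusters were called about as often as genes in all. Of 21 measured coding neighbours, 10 on either side and SLC25A2 between the beta and gamma clusters, 1 rose and 1 fell, or 9.52% beside 9.49% of all genes, with a median log2 change of -0.026. SLC25A2, a mitochondrial ornithine carrier gene and the measured neighbour nearest to PCDHB15, differed by 0.043 (limma, adjusted p = 0.861). DIAPH1, a formin gene of actin assembly beyond the gamma cluster, measured 9.01, 9.06 and 9.06 on control and 9.39, 9.50 and 9.44 on knockout arrays, a rise of 0.40 (adjusted p = 0.0146). Leaving out control replicate 1 (0.0602), control replicate 3 (0.0573) or knockout replicate 2 (0.0573) ended that call. HDAC3, next to DIAPH1 and known as the deacetylase that REV-ERBα recruits, differed by 0.062 (adjusted p = 0.755). HBEGF, an EGF receptor ligand gene on the other side, fell by 0.89 on the log2 scale (adjusted p = 0.000747).

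**Figure D4:**
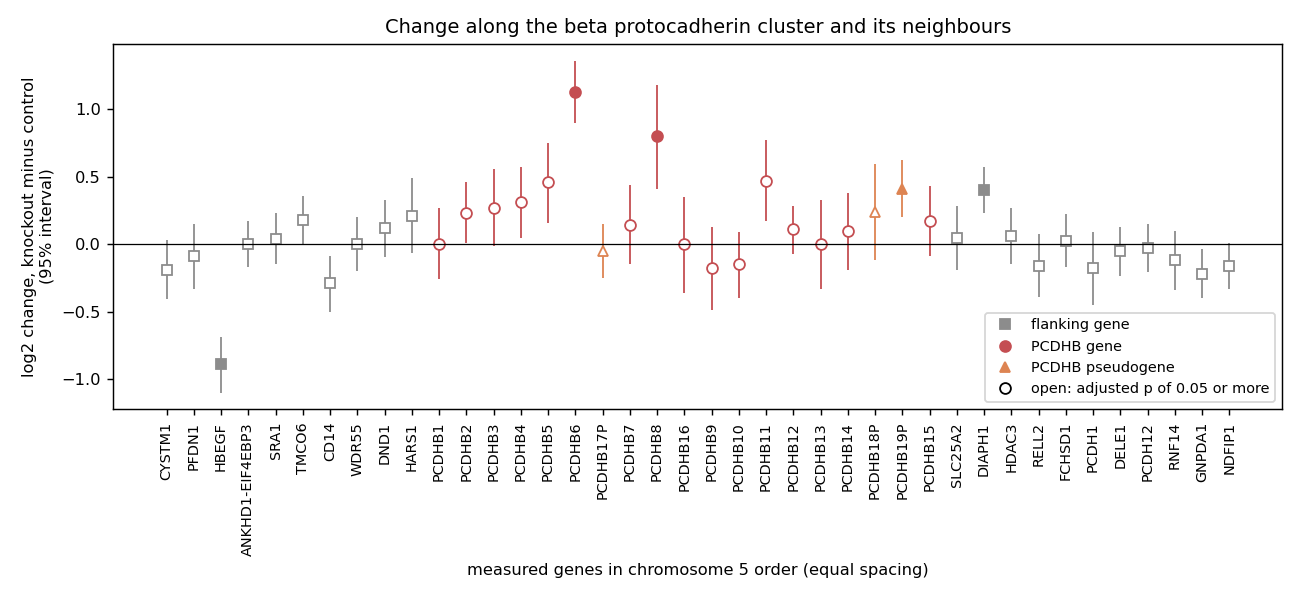
Log2 change (knockout minus control) with its 95% interval for the 16 PCDHB genes (red circles), 3 PCDHB pseudogenes (orange triangles) and 21 neighbouring coding genes (grey squares) in chromosome 5 order at equal spacing; filled symbols have an adjusted p under 0.05. The called rises of the cluster are PCDHB6 at 1.13, PCDHB8 at 0.80 and PCDHB19P at 0.41, and the neighbours on both sides scatter around 0 except HBEGF and DIAPH1.

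Genes that act on protocadherin promoters were measured for 23 of 26 listed, and 2 rose and 2 fell (17.4% called, beside 9.49% of all genes), with a median log2 change of 0.11. UHRF1, which brings the maintenance methyltransferase to newly copied DNA, rose by 0.53 on the log2 scale (limma, adjusted p = 0.00512), and EHMT1, a histone H3 lysine methyltransferase gene, rose by 0.39 (adjusted p = 0.0206). LRIF1, a partner of the silencing protein SMCHD1, fell by 0.88 (adjusted p = 0.00188) at its brighter probe set. A dimmer probe set of LRIF1 changed by -0.52 (adjusted p = 0.117 over named probe sets). STAG2, a cohesin subunit gene, fell by 0.44 (adjusted p = 0.0121), a call lost when control replicate 3 was left out (0.0514). For EHMT1 the call ended on leaving out control replicate 1 (0.0524), control replicate 2 (0.0726), control replicate 3 (0.0815) or knockout replicate 2 (0.0725).

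The best known regulators of the clusters were not called. CTCF had a mean of 9.51 ± 0.0456 on control and 9.66 ± 0.0354 on knockout arrays (SD), a log2 change of 0.15 (limma, adjusted p = 0.293, n = 3 each). SMCHD1 differed by 0.12 (adjusted p = 0.441), the cohesin gene RAD21 by -0.021 (adjusted p = 0.921) and the cohesin release gene WAPL by 0.07 (adjusted p = 0.688). The cohesin genes SMC1A and SMC3, named here after their values were seen, differed by 0.31 (adjusted p = 0.061) and 0.30 (0.0677). Of the 23 measured regulators, 10 were higher and 3 lower in the knockout without overlap of the groups. Among all genes 15.1% were higher and 13.6% lower in this way. The maintenance methyltransferase gene DNMT1, which is named here after its values were seen, stood at the edge of the threshold with a log2 change of 0.30 (adjusted p = 0.0504).

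Genes for partners and processing of protocadherin proteins were measured for 12 of 21 listed, with 1 fall and no rise (8.33% called, near the 9.49% of all genes) and a median of -0.12. The fall was PSEN2, a catalytic subunit gene of the gamma-secretase that cleaves protocadherins within the membrane, by 0.44 on the log2 scale (limma, adjusted p = 0.029). This call was lost on leaving out control replicate 2 (0.0962), control replicate 3 (0.103) or knockout replicate 1 (0.066), 2 (0.077) or 3 (0.0827). The kinase genes PTK2 and PTK2B of this list differed by -0.11 (limma, adjusted p = 0.48) and -0.31 (adjusted p = 0.18), and are named here after their values were seen.

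Among 22 measured non-clustered protocadherins and atypical cadherins, 2 rose and none fell (9.09%, near the 9.49% of all genes), with a median log2 change of 0.016. PCDH18, a protocadherin gene outside the clusters, rose from 4.56 ± 0.129 to 5.68 ± 0.126 (SD), a log2 change of 1.11 and nearly the size seen in PCDHB6 (limma, adjusted p = 0.000468, n = 3 each). FAT1, a giant atypical cadherin gene, rose by 0.69 (adjusted p = 0.00166). Of 36 listed classical and desmosomal cadherins and catenins only 9 were measured, and all of these but CDH26 were desmosomal genes. Classical cadherins such as CDH1 and CDH2, and catenins other than JUP, were not among them. Of the 9, 2 rose and 1 fell (33.3%, beside 9.49% of all genes). The desmosomal cadherin genes DSG2 and DSC2 rose by 1.86 and 1.07, and JUP, which encodes plakoglobin, fell by 0.33 (adjusted p = 0.0328). The call of JUP was lost whichever of the 6 arrays was left out, at adjusted p of 0.0544 to 0.103.

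**Figure D5:**
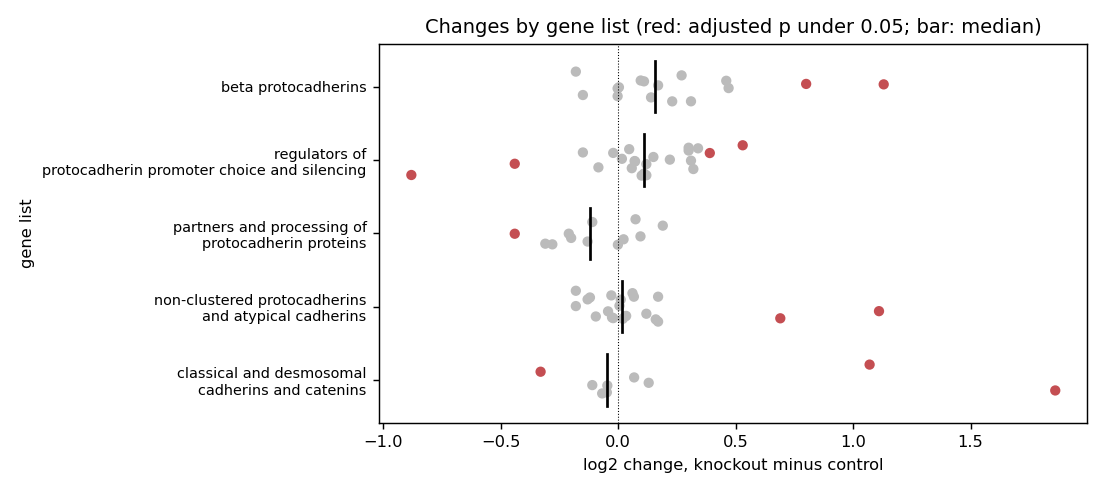
Log2 change (knockout minus control) of every measured gene in 5 lists, with genes at an adjusted p under 0.05 in red and the list's median as a black bar. The beta protocadherins have a median of 0.16 and no member below -0.18, and the non-clustered protocadherins and atypical cadherins have a median of 0.016 with PCDH18 and FAT1 apart.

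Markers of neurons, the cells in which these adhesion genes are best known, were measured for 6 of 14 listed. Of these, 1 was called (16.7%, beside 9.49% of all genes). Their mean log2 value was 5.26 to 5.55 on control and 5.49 to 5.55 on knockout arrays, which overlap. The microtubule gene MAP2 rose by 0.68 (limma, adjusted p = 0.00278), and DCX, GAP43, STMN2, SYN1 and SYP were not called. None of 3 measured fibroblast markers was called, and 0 of them had an unadjusted limma p under 0.05, beside 22.8% of all genes. Of 3 measured leukocyte markers 1 was called (33.3%, beside 9.49% of all genes). It was CD68, a lysosomal membrane protein gene, which fell by 0.45 (limma, adjusted p = 0.0167). The call of CD68 was lost on leaving out control replicate 1 (0.05), 2 (0.0583) or 3 (0.066). The part of these markers in the protocadherin changes was not tested.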

How the data were processed

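Per the labels' protocols, total RNA was amplified with a whole-transcript kit and labelled with biotin for GeneChip arrays. The authors deposited a single table of values, read here as log2 probe set summaries from their range, which the authors had normalized between arrays before deposit, as the nearly equal quantiles of the 6 arrays show. How background was corrected and probes were summarized is not given in the sources used here. If the scale were not log2, the folds would be wrong.

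Of 53617 probe sets, 16098 had 1 gene symbol in the platform's annotation table, none had several and 37519 had none and are unnamed here. All 16098 matched a RefSeq table of assembly GRCh38.p14, which gave names and gene order. The probe set with the highest mean stood for a gene (779 genes had several), and no gene was filtered for a low level. Control and knockout arrays, 3 each, entered a two-sided limma fit (version 3.58.1, R 4.3.3; lmFit, eBayes), adjusted by Benjamini-Hochberg over all 14884 genes, with a threshold of 0.05. Standard errors of log2 changes had a median of 0.101, and the number of arrays limits the precision. The fit was tested on simulated data.

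The members, lists and naming rule were chosen with earlier results of these data known. The text gives every member. Of each list it names up to 4 called genes with the largest change, and of the neighbours the called ones with HDAC3, SLC25A2 and DIAPH1; CTCF, RAD21, SMCHD1 and WAPL are named by the same rule. Promoters were compared with Biopython 1.88 (local alignment) and figures drawn with matplotlib 3.10.9. Alternatives were quantile normalization of the deposited values, median centring, filters on the dimmest 25% or 50% of genes, and other uses of probe sets. Further ones were a trend and robust prior, array weights, a replicate block, leaving out each array, and an unadjusted p with 1.5-fold.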

Additional observations from a re-analysis of the deposited data

How the results depend on the processing

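The number of protocadherins called was 2 of 16. It stayed at 2 or 3 under quantile normalization of the deposited values, median centring, and averaged or separately tested named probe sets. It also stayed there with a trend and robust prior, array weights, and an unadjusted p with 1.5-fold. It was 1 when both the fit and the adjustment ran over all probe sets of the array, named or not (the cause was not tested), and 1 without the dimmest 50% of genes, where PCDHB6 and PCDHB8 are removed and PCDHB11 passes (adjusted p = 0.0175). PCDHB11 also passed without the dimmest 25% (0.0323) and with the trend and robust prior (0.0235). Leaving out each array gave 1 to 2 called members. The difference between group means over the members, 0.24, was 0.15 without the dimmest 25% and 0.06 without the dimmest 50% of genes, where fewer members remain. No direction of a called gene named in the text reversed under any of these alternatives.

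Over all genes, 1412 calls became 581 when every probe set was tested and 558 with an unadjusted p and 1.5-fold, and 723 to 1049 with an array left out. The flanking genes, with 2 calls, had 1 under both of these settings and 1 to 2 with an array left out. The context lists had 10 calls, 6 over all probe sets, 5 by unadjusted p and 1.5-fold, 17 with the trend and robust prior and 6 to 9 with an array left out.

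Replicate numbers are shared between groups, but deviations of same-numbered arrays correlated at 0.0547, 0.0681 and -0.106, so the numbers were not taken as pairs. With the replicate block 1050 genes were called, PCDHB6 and PCDHB8 among them, and 7 genes of the context lists. Signal over background could not be judged, since no detection calls were at hand, and 6 of 16 members lie among the dimmest 25% of genes.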
